A study of Homo sapiens with 12 samples.

Results

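The ATP-binding cassette (ABC) transporters are a family of membrane pumps and related ATPases that share a type of nucleotide-binding fold. Members were taken as the genes whose symbol is ABC, a subfamily letter from A to G and a number, which gave 46 of the 22170 genes in the deposited table. Subfamily A had 12 members, B had 9, C had 12, D had 4, E had 1, F had 3 and G had 5. The rule reads the symbol and no measured value, while the family itself was picked with earlier results of these data known. The 46 genes were counted in 12 messenger RNA libraries of SKBR3, a human breast cancer line with an amplified ERBB2, the gene of the HER2 receptor. Cells were kept with 5 µM GSK126 for 7 days and 100 nM lapatinib for the last 24 h (the combination), with GSK126 alone, with lapatinib alone, or with the vehicle DMSO, and each of the 4 groups had 3 libraries. GSK126 inhibits EZH2, the methyltransferase of the repressive Polycomb complex PRC2, and lapatinib inhibits the EGFR and HER2 kinases. Nothing in the labels ties a library to a culture of its own, so p-values cover the spread among these libraries and no more. All groups are the same cell line, grown in culture.

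ABC transporters use the energy of ATP to move lipids, sterols, drugs, conjugates, peptides, bile salts and heme precursors across membranes. In tumour cells they are best known for multidrug resistance through P-glycoprotein (ABCB1), MRP1 (ABCC1) and BCRP (ABCG2), which pump drugs out of the cell. Subfamily A mostly moves lipids, B holds drug pumps and the transporters of mitochondria and lysosomes, C holds the multidrug resistance proteins that export conjugates and cyclic nucleotides, D serves peroxisomes and lysosomes, and G holds sterol pumps and BCRP. The members of E and F lack membrane segments and act on ribosomes and translation.

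The libraries held 18.0 to 30.5 M counted reads, and levels below are normalized read counts (reads divided by the size factor of the library). Values are compared between libraries for 1 gene at a time, because counts also grow with transcript length. Testing required 3 or more libraries at 10 or above. This kept 34 of the 46 members and 14179 genes in all, with 8 members tested in subfamily A, 6 in B, 10 in C, 3 in D, 1 in E, 3 in F and 3 in G. A member near silence in DMSO passed that filter only through the groups where it was high. ABCC4 passed through libraries with GSK126, ABCC12 through lapatinib libraries and combination library 1, and ABCA1 through the groups other than DMSO. For these, the filter and the tested change draw on the same libraries. Changes come from limma as log2 fold changes with their SE, on values raised by a pseudocount of 1, with p-values adjusted over all 14179 genes and a call at an adjusted p under 0.05. In RNA from whole cultures, a lower value cannot separate fewer cells with a transcript from less transcript per cell.

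A pair of libraries stood apart. Combination library 1 had a read in all 46 members and in 21669 genes, against 34 to 39 members and 15059 to 17338 genes in the other 11 libraries. GSK126 library 1 was alone in the proportions of the spike-in transcripts among themselves, while GSK126 libraries 2 and 3 shared theirs with combination library 1 and the other 8 libraries formed a single class. No library of GSK126 alone thus shared its class with a DMSO or lapatinib library. For the members described, calls that end without either library are given beside the value. The markers of SKBR3 cells were present, with 151017, 185485 and 180505 counts of ERBB2 in combination libraries, 149368, 123876 and 88082 in GSK126 libraries, 296383, 290536 and 305779 in lapatinib libraries and 143494, 166912 and 152454 in DMSO libraries. CDH1, also on the marker list, had at most 12.4 counts in any library. Markers of other cell types moved within their lists. The sum of 5 endothelial markers lay between 784 and 1109 in combination libraries, 934 and 1561 in GSK126 libraries, 186 and 238 in lapatinib libraries and 206 and 269.8 in DMSO libraries. CDH5 held most of it in the combination and GSK126 (739 to 1529 counts with GSK126) and VWF most of it in lapatinib (125 to 157). VWF averaged 39.5 in GSK126 libraries and 94.9 in DMSO libraries, and CDH5 averaged 1266 in GSK126 libraries and 141 in DMSO libraries. The sum of 6 immune markers lay between 656 and 784 in combination libraries, 323 and 477 in GSK126 libraries, 253 and 330.0 in lapatinib libraries and 196 and 226 in DMSO libraries, most of it CD68. The sum of 6 fibroblast markers lay between 70.4 and 172 in combination libraries, 142 and 242 in GSK126 libraries, 202 and 245 in lapatinib libraries and 249 and 392 in DMSO libraries. The defining immune gene PTPRC was at 19.9 in combination library 1 and at most 1.53 elsewhere. The part of these genes in the results below was not tested.

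The sequences before the start sites of 4 members are shown because these genes carry the main results: ABCC5 and ABCC11 for lapatinib and ABCC4 and ABCA1 for GSK126. Each line gives the 250 bases upstream of the gene's start in RefSeq (build GRCh38.p14), read 5′ to 3′ on the gene's strand, with every CG dinucleotide in capitals.
ABCC5: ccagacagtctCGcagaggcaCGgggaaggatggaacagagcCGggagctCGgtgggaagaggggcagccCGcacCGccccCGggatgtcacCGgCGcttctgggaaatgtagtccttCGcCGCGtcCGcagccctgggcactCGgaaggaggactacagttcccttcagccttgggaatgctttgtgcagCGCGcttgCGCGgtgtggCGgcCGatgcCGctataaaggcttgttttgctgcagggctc
ABCC11: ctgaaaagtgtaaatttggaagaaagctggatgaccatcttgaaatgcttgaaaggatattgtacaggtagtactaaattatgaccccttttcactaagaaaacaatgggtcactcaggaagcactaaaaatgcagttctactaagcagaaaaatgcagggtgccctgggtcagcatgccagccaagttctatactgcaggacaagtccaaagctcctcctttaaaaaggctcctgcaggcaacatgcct
ABCC4: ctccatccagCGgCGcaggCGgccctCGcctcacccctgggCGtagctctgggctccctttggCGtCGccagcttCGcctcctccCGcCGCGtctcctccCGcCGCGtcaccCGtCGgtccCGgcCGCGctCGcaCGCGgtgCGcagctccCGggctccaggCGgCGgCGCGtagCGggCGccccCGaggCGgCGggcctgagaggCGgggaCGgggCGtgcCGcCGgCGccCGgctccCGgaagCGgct
ABCA1: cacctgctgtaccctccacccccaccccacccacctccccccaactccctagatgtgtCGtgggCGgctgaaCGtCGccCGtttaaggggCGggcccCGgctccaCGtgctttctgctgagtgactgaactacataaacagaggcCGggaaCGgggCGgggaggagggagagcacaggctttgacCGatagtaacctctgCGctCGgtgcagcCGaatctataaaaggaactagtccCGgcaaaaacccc
The windows lie on the minus strand at chr3:184017885-184018134 for ABCC5, chr16:48247540-48247789 for ABCC11, chr13:95301452-95301701 for ABCC4 and chr9:104928156-104928405 for ABCA1. CG dinucleotides numbered 21 for ABCC5, 0 for ABCC11, 42 for ABCC4 and 16 for ABCA1, against a median of 11 over all 27305 promoters of the table and 16 over the 35 members found there. The letters GGGCGG, searched on both strands, occurred in 51.4% of the members' windows and 42.3% of all windows. TATAAA, searched on both strands, occurred in 14.3% of the members' windows and 11.1% of all windows. CCAAT, searched on both strands, occurred in 17.1% of the members' windows and 33.0% of all windows. These are matches of letters and say nothing about the binding of a factor. The count data carry no coordinates of their own, and whether SKBR3 cells start transcription at these sites was not measured.

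Levels in DMSO cells spanned a wide range. Per kilobase of exon (union of exons in GENCODE), ABCF1, which acts with translation initiation factors, was highest at 3662 ± 735 normalized counts per kilobase (SD, n = 3). ABCF3 followed at 1053 ± 97.6, ABCB6, a porphyrin transporter, at 1003 ± 97.6, and ABCF2 at 756 ± 43.4. The first and second places did not overlap in spread, whereas ABCF3 and ABCB6 differed by less than their SDs. ABCE1, the ribosome recycling factor, had 508 ± 82.2. Among export pumps of subfamily C, ABCC5 (MRP5) had 364 ± 21.9 and ABCC1 (MRP1) 289 ± 35.0 normalized counts per kilobase. The sterol exporter ABCG1 had 62.9 ± 9.12, BCRP (ABCG2) 2.26 ± 1.10, ABCC4 (MRP4) 0.755 ± 0.543 and the cholesterol exporter ABCA1 0.185 ± 0.190. P-glycoprotein (ABCB1) had no read in any DMSO library, like 7 other members. The heat map of tested members shows these genes relative to DMSO.

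**Figure D1:**
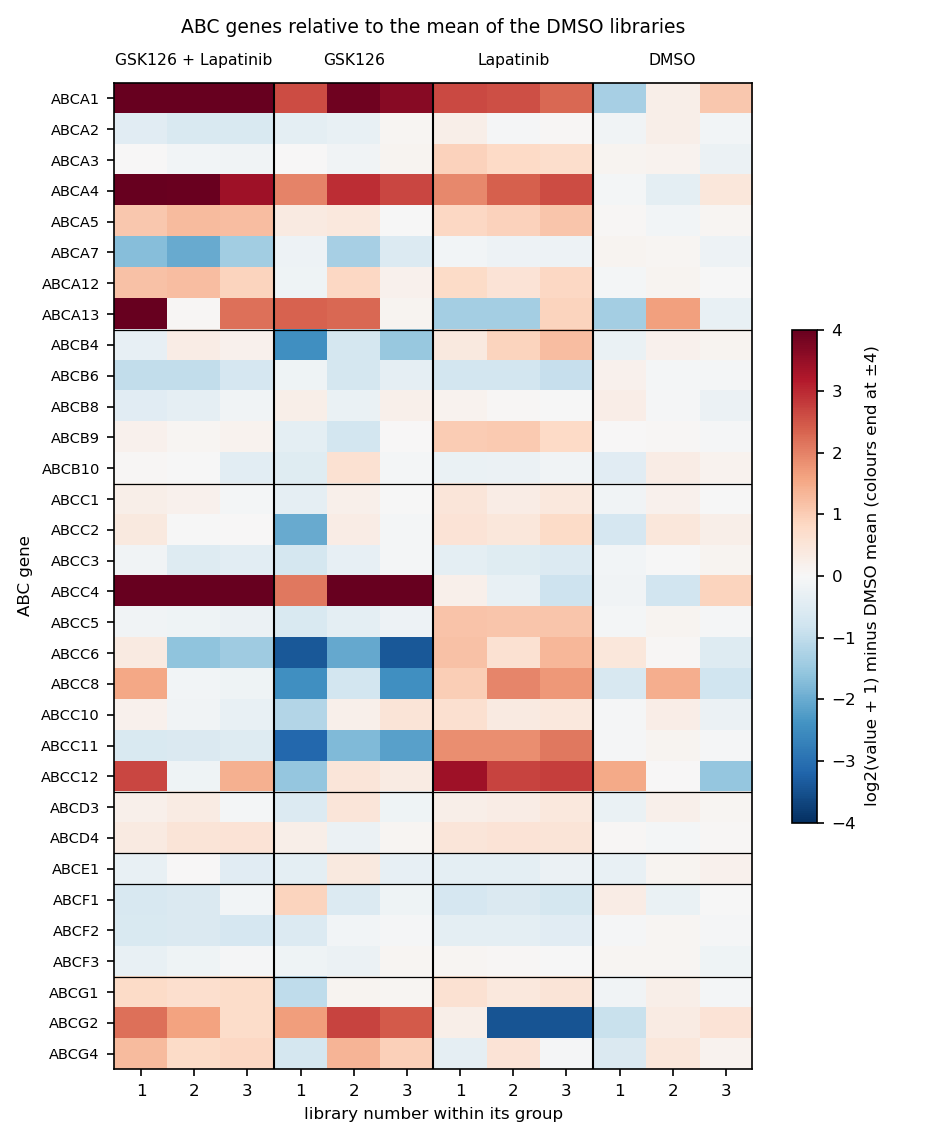
Each row is one of the tested ABC genes reported here and each column a library. The colour is log2(value + 1) minus the mean of the 3 DMSO libraries, and colours end at 4 in both directions, so larger differences have the end colour. ABCC4 and ABCA1 are above the DMSO mean in every GSK126 and combination column, and ABCC5, ABCC11 and ABCB9 are highest in the lapatinib columns.

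The 12 members that were not tested were ABCA6, ABCA8, ABCA9, ABCA10, ABCB1, ABCB5, ABCB11, ABCC9, ABCC13, ABCD2, ABCG5 and ABCG8. For 8 of them, combination library 1 held more reads than the other 11 libraries together. ABCB1 had 23.6, 7.28 and 3.86 normalized counts in combination libraries, 1.10, 3.07 and 0 in GSK126 libraries, 0, 2.13 and 0 in lapatinib libraries and 0 in each DMSO library. Counts of 0 in DMSO allow up to 3.68, 2.96 and 3.20 normalized counts in libraries 1, 2 and 3, the value of 3 reads, for counting error only. The highest value of any untested member outside combination library 1 was 16.4 normalized counts, in ABCG5, a subunit of the intestinal sterol pump.

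Lapatinib against DMSO asks how the family responds to a day of HER2 kinase inhibition. Of the 34 tested members, 10 rose and 2 fell, or 35.3%, against 28% of all genes tested (13.7% higher and 14.3% lower). Without GSK126 library 1 these were 13 and 4 members, or 50%, against 40.5% of all genes. The members that rose were ABCA1, ABCA3, ABCA4, ABCA5, ABCA12, ABCB9, ABCC5, ABCC11, ABCC12 and ABCD4, and those that fell were ABCB6 and ABCF2. The median log2 fold change was 0.36 over the tested members and 0.04 over all tested genes. Libraries of the groups did not overlap for 21 members, where 55.5% of all genes did not.

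GSK126 against DMSO asks how the family responds to a week of EZH2 inhibition. Here 3 members rose and 3 fell, or 17.6%, against 14.6% of all genes tested (10.7% higher and 3.93% lower). Without GSK126 library 1 these were 3 and 5 members, or 23.5%, against 23% of all genes. The groups compared here shared no class of spike-in composition, so between them the drug and that class cannot be told apart. With the class as a term, 2 members were higher and 2 lower, or 11.8%, against 3.15% of all genes. GSK126 library 1 has a class to itself, so that fit compares libraries 2 and 3. Their class can be estimated only from combination library 1 against combination libraries 2 and 3. These counts thus rest on combination library 1, which stood apart. ABCA1, ABCA4 and ABCC4 rose, and ABCB4, ABCC6 and ABCC11 fell. The median log2 fold change was -0.11 over the members and -0.045 over all tested genes. Libraries did not overlap for 10 members, where 24% of all genes did not. The GSK126 group had the widest spread between libraries (median SD 0.43 on the log2 scale), against 0.20 in the combination, 0.12 in lapatinib and 0.24 in DMSO, and the fit pools these.

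The combination against GSK126 alone gave 9 members higher and 1 lower, or 29.4%, against 18.2% of all genes (8.48% higher and 9.71% lower). The count rests on single libraries, with 3 members (8.82%, against 10.7% of all genes) called without combination library 1 and 2 (5.88%, against 9.64%) without combination library 2. There were 6 (17.6%, against 13.6%) without combination library 3 and 6 (17.6%, against 16% of all genes) without GSK126 library 3. The members' share thus lay below that of all genes without combination library 1 or 2. With the spike-in composition as a term, the calls of ABCA1, ABCA4, ABCA7, ABCA12, ABCB4, ABCD4 and ABCG1 in this comparison were lost. That fit sets combination library 1 against GSK126 libraries 2 and 3, so it too rests on a single library. The combination against lapatinib alone gave 4 members higher and 7 lower, or 32.4%, against 17.9% of all genes (11.5% higher and 6.35% lower). The combination against DMSO gave 7 members higher and 5 lower, or 35.3%, against 42.1% of all genes (22% higher and 20.1% lower), so this share lay below that of all genes. Median changes of the members were 0.23, -0.19 and 0.07 in these comparisons, and those of all genes were 0.04, -0.025 and 0.06. Libraries did not overlap for 14 members in the first, 23 in the second and 18 in the third, and for 29.7%, 47.3% and 57.1% of all genes. Over the 5 comparisons, 20 of the 34 tested members were called at least once by limma and 14 were not. The share of all genes called at least once was not computed, but it cannot be below the 42.1% of the combination against DMSO. DESeq2 on the recovered reads made all 51 member calls of limma and 9 more, and it also called more of all genes. For GSK126 against DMSO it added ABCC5 and ABCG2 (18.4% of all genes in DESeq2 and 14.6% in limma). For the combination against GSK126 it added ABCB6, ABCC8 and ABCF2 (24.5% and 18.2%). It added ABCA13 for the combination against lapatinib (21.8% and 17.9%) and ABCC11 for the combination against DMSO (45.4% and 42.1%). The last were 2 interactions given below. In combination libraries 1, 2 and 3 ABCC8 had 14.9, 4.04 and 3.86 and ABCA13 had 56.0, 1.62 and 10.6, so both were highest in library 1. edgeR called none beyond limma and missed 3, among them ABCF2 for lapatinib against DMSO and ABCC6 for the combination against GSK126.

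Scaling affects these directions. When libraries were scaled to the spike-in transcripts, the median of all genes moved by -0.53 for lapatinib against DMSO, -1.03 for the combination against GSK126, -0.46 for the combination against lapatinib, -1.00 for the combination against DMSO and 0.04 for GSK126 against DMSO. The spike-in share of reads also varied within groups. In libraries 1, 2 and 3 it was 1.72%, 1.68% and 1.35% in the combination, 1.33%, 0.384% and 0.65% in GSK126, 0.86%, 1.42% and 1.03% in lapatinib and 0.745%, 0.588% and 0.663% in DMSO. Its part in the calls on that scale was not tested. On the spike-in scale limma called no member for lapatinib against DMSO, where 5.54% of all genes were called. The combination against GSK126 had 0 higher and 4 lower (11.8%, against 21.6% of all genes), and the combination against DMSO had 3 higher and 7 lower (29.4%, against 33.2%). Scaling to total counts moved the median of all genes by 0.25 for the combination against DMSO and gave 7 higher and 2 lower (26.5%, against 40.4%). Changes below are therefore relative to the typical gene of the libraries. The direction of ABCD4, ABCA12, ABCA5 and ABCG1 flips on the spike-in scale in comparisons with the combination, and that of ABCD4 also for lapatinib against DMSO.

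Among the exporters of conjugates and cyclic nucleotides in subfamily C, ABCC5 and ABCC11 were the clearest risers with lapatinib. ABCC5 (MRP5), which exports cyclic nucleotides and folates, had 3497, 3397 and 3266 in combination libraries, 2498, 2931 and 3324 in GSK126 libraries, 8464, 8238 and 8249 in lapatinib libraries and 3659, 4091 and 3732 in DMSO libraries. All 3 lapatinib libraries lay above every other library, the highest of which was DMSO library 2. ABCC5 rose by 1.12 ± 0.13 (adjusted p = 4.17e-05) with lapatinib and was 1.30 ± 0.13 lower on the log2 scale in the combination than in lapatinib (adjusted p = 1.25e-05). Its log2 fold change was 0.22 ± 0.13, adjusted p = 0.239 for the combination against GSK126, -0.40 ± 0.13, adjusted p = 0.0519 for GSK126 against DMSO and -0.18 ± 0.13, adjusted p = 0.289 for the combination against DMSO. On the spike-in scale limma gave 0.58 (adjusted p = 0.561) with lapatinib and -1.76 (adjusted p = 0.0603) for the combination against lapatinib.

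ABCC11 (MRP8), the pump of apocrine glands known for the earwax type, had 239, 248 and 257 in combination libraries, 40.5, 107 and 80.4 in GSK126 libraries, 1351, 1346 and 1581 in lapatinib libraries and 357, 393 and 355 in DMSO libraries. The 4 groups did not overlap, with lapatinib highest, then DMSO, the combination and GSK126. ABCC11 rose with lapatinib by 1.95 ± 0.27 (adjusted p = 0.000197) and fell with GSK126 by 2.37 ± 0.27 (adjusted p = 5.94e-05). In the presence of the other drug the changes were of like size, an increase of 1.80 ± 0.27 (adjusted p = 0.000557) for the combination against GSK126 and a decrease of 2.52 ± 0.27 (adjusted p = 2.53e-05) for the combination against lapatinib. The combination and DMSO differed by -0.57 ± 0.27, adjusted p = 0.106. None of the 4 calls was lost when any 1 library was left out. On the spike-in scale limma kept both decreases but not the increases, at 1.41 (adjusted p = 0.196) for lapatinib against DMSO. The increase for the combination against GSK126 was 0.76 there (adjusted p = 0.345).

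ABCC12 (MRP9), the neighbour of ABCC11 on chromosome 16 in RefSeq, had few reads. It had 17.4, 1.62 and 6.75 in combination libraries, 0, 3.07 and 2.65 in GSK126 libraries, 29.4, 18.1 and 18.8 in lapatinib libraries and 7.35, 1.98 and 0 in DMSO libraries. Lapatinib libraries were above those of DMSO, and the combination libraries lay below those of lapatinib, 2 of the 3 among those of DMSO. ABCC12 rose by 2.95 ± 0.91 (adjusted p = 0.0292) with lapatinib, and the call was lost without DMSO library 2 or 3 or any 1 lapatinib library (adjusted p between 0.0605 and 0.115). Without DMSO library 1 the change was 3.71 and without DMSO library 3 it was 2.18. Another neighbour pair is ABCC1 and ABCC6, also on chromosome 16, whose values are given below. ABCC6 loss causes pseudoxanthoma elasticum, a mineralization disorder, and the gene has near-identical pseudogenes, so its reads are less certain.

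ABCC4 (MRP4), an exporter of cyclic nucleotides and prostaglandins, was near silent without GSK126 and not with it. It had 152, 139 and 90.6 in combination libraries, 20.8, 244 and 103 in GSK126 libraries, 4.90, 3.19 and 1.88 in lapatinib libraries and 3.68, 1.98 and 8.54 in DMSO libraries. Every library with GSK126 lay above every library without it, and the GSK126 libraries differed among themselves by more than those of the combination. ABCC4 passed the filter only through libraries with GSK126, so its entry into the test was not independent of the changes that follow. ABCC4 rose by 4.01 ± 0.73 (adjusted p = 0.00224) with GSK126, 4.92 ± 0.73 (adjusted p = 0.000361) for the combination against lapatinib and 4.62 ± 0.73 (adjusted p = 0.000271) for the combination against DMSO. The first of these was 4.96 without GSK126 library 1 and 3.22 without GSK126 library 2. Lapatinib against DMSO gave -0.30 ± 0.73, adjusted p = 0.789, and the combination against GSK126 gave 0.61 ± 0.73, adjusted p = 0.591.

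ABCC6 had 12.4, 2.43 and 2.89 in combination libraries, 0, 1.53 and 0 in GSK126 libraries, 22.5, 14.9 and 25.3 in lapatinib libraries and 13.5, 9.88 and 6.40 in DMSO libraries. The GSK126 libraries together held 2 reads and the DMSO libraries 27, a ratio of 0.0612 per unit of depth with a 95% exact interval of 0.00705 to 0.243 that covers counting error only. The fitted change with GSK126 was -2.95 ± 0.66, adjusted p = 0.00914, a value that depends on the pseudocount, and in a fit of these 2 groups alone the adjusted p was 0.0758. The combination held 16 reads, 10 of them in its library 1, a ratio to GSK126 of 8.7 with an interval of 2.05 to 78, and the fitted change was 2.05 ± 0.66, adjusted p = 0.049. That call was lost without any 1 of 11 libraries, at adjusted p between 0.0558 and 0.198, and the change was 1.42 without combination library 1. It stood without GSK126 library 2.

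ABCC1 and ABCC3, pumps known from drug resistance, were called in none of the 5 comparisons. ABCC1 (MRP1) had 2230.3, 2139.6 and 1786 in combination libraries, 1483, 2187 and 1885 in GSK126 libraries, 2642, 2349 and 2540.3 in lapatinib libraries and 1704, 2157 and 1857 in DMSO libraries. Lapatinib libraries were above those of DMSO without passing the test (0.40 ± 0.16, adjusted p = 0.0811), and GSK126 against DMSO gave -0.05 ± 0.16, adjusted p = 0.877. ABCC3 (MRP3), a basolateral exporter of bile salts and glucuronides, had 200.4, 156 and 165 in combination libraries, 135, 175 and 210.4 in GSK126 libraries, 169, 156 and 150.2 in lapatinib libraries and 206, 220.3 and 239 in DMSO libraries. Its log2 fold change was -0.48 ± 0.20, adjusted p = 0.0859 with lapatinib and -0.37 ± 0.20, adjusted p = 0.25 with GSK126, neither past the threshold. The combination against DMSO gave 0.11 ± 0.16, adjusted p = 0.626 for ABCC1 and -0.36 ± 0.20, adjusted p = 0.163 for ABCC3.

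BCRP (ABCG2), which exports many anticancer drugs and urate, had 49.8, 32.4 and 17.3 in combination libraries, 34.0, 70.6 and 58.3 in GSK126 libraries, 11.8, 0 and 0 in lapatinib libraries and 4.90, 12.8 and 14.9 in DMSO libraries. Libraries with GSK126 lay above those without it, and 2 of the 3 lapatinib libraries had no read, which allows up to 3.19 and 2.82 normalized counts in lapatinib libraries 2 and 3. ABCG2 was 3.75 ± 0.86 (adjusted p = 0.00769) higher on the log2 scale in the combination than in lapatinib. This was 4.98 without lapatinib library 1 and 3.14 without lapatinib library 2 or 3. GSK126 against DMSO gave 2.28 ± 0.86, adjusted p = 0.103 in limma (0.08 in edgeR and 0.0197 in DESeq2), lapatinib against DMSO -2.23 ± 0.86, adjusted p = 0.0696, the combination against GSK126 -0.75 ± 0.86, adjusted p = 0.572 and the combination against DMSO 1.53 ± 0.86, adjusted p = 0.171.

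**Figure D2:**
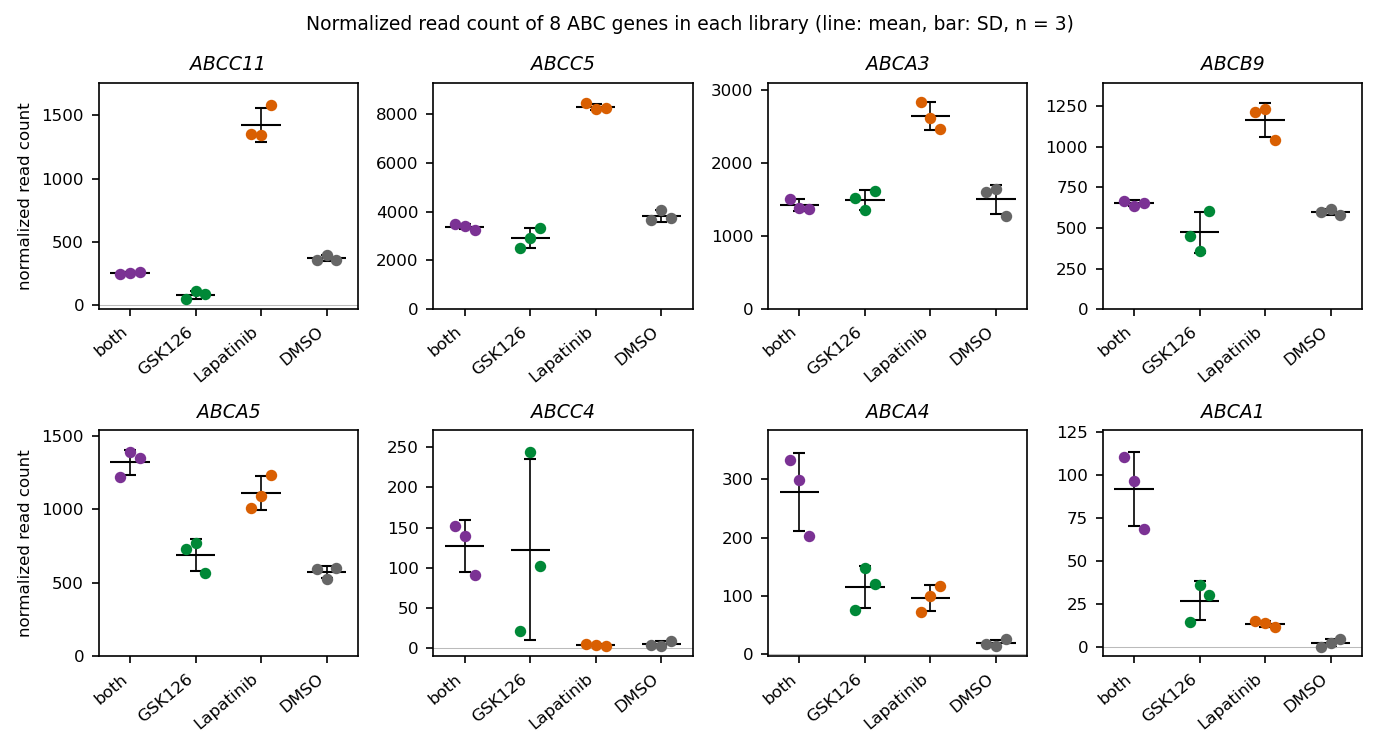
Normalized read count of 8 ABC genes in each library, by group, with "both" for the combination. Points are libraries, the line is the mean and the bar the SD of 3. ABCC5, ABCA3 and ABCB9 are highest in lapatinib alone, ABCC11 orders the 4 groups apart, ABCC4 is near 0 without GSK126, and ABCA4 and ABCA1 are highest in the combination and lowest in DMSO.

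Among the lipid transporters of subfamily A, ABCA1 and ABCA4 rose with either drug. ABCA1, which loads cholesterol and phospholipid onto apolipoprotein A-I and is a target of the liver X receptors (LXR), had 111, 96.3 and 68.4 in combination libraries, 14.2, 36.0 and 30.1 in GSK126 libraries, 14.7, 13.8 and 11.3 in lapatinib libraries and 0, 1.98 and 4.27 in DMSO libraries. All combination libraries lay above all others and all DMSO libraries below, while GSK126 library 1 fell within the range of lapatinib. ABCA1 rose by 2.50 ± 0.56 (adjusted p = 0.00582) with lapatinib, 3.38 ± 0.56 (adjusted p = 0.00123) with GSK126, 2.68 ± 0.56 (adjusted p = 0.00458) for the combination against lapatinib and 5.18 ± 0.56 (adjusted p = 1.41e-05) for the combination against DMSO. DMSO libraries 2 and 3 held 2 and 4 reads and library 1 none, and without DMSO library 1 the changes against DMSO were 1.84 for lapatinib, 2.71 for GSK126 and 4.52 for the combination. The change of 1.81 ± 0.56 (adjusted p = 0.0422) for the combination against GSK126 was lost without any 1 of 9 libraries (adjusted p between 0.051 and 0.14). It stood without DMSO library 1 or 3 or GSK126 library 2. With the spike-in composition as a term, the change with GSK126 was 3.32 at an adjusted p of 0.123, in a fit that rests on combination library 1.

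ABCA4, which clears retinal conjugates from photoreceptor discs, had 334, 298 and 203 in combination libraries, 75.6, 147 and 121 in GSK126 libraries, 72.5, 100.0 and 116 in lapatinib libraries and 17.2, 13.8 and 25.6 in DMSO libraries. Each drug alone was above DMSO and the combination above both. ABCA4 rose by 2.31 ± 0.32 (adjusted p = 0.000215) with lapatinib and 2.53 ± 0.32 (adjusted p = 0.000148) with GSK126. The combination was 3.83 ± 0.32 (adjusted p = 1.54e-06) above DMSO, 1.52 ± 0.32 (adjusted p = 0.00479) above lapatinib and 1.29 ± 0.32 (adjusted p = 0.0149) above GSK126. Only the last was lost when a library was left out, with 1.15 (adjusted p = 0.0704) without combination library 1 and 1.23 (adjusted p = 0.0657) without combination library 2.

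ABCA3, which fills the lamellar bodies of lung cells with surfactant lipid, followed the pattern of ABCC5. It had 1511, 1378 and 1367 in combination libraries, 1522, 1349 and 1619 in GSK126 libraries, 2838, 2616 and 2456 in lapatinib libraries and 1596, 1638 and 1274 in DMSO libraries. All 3 lapatinib libraries were above every other library. ABCA3 rose with lapatinib by 0.82 ± 0.14 (adjusted p = 0.000867) and was 0.89 ± 0.14 lower in the combination than in lapatinib (adjusted p = 0.000491). The combination against GSK126 gave -0.08 ± 0.14, adjusted p = 0.734.

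ABCA5, a lysosomal member of the family, rose with lapatinib in either background. It had 1221, 1387 and 1347 in combination libraries, 728, 769 and 564 in GSK126 libraries, 1011, 1089 and 1234 in lapatinib libraries and 593, 527 and 598 in DMSO libraries. Libraries with lapatinib lay above those without it. The increase was 0.95 ± 0.15 (adjusted p = 0.000561) for lapatinib against DMSO, 0.95 ± 0.15 (adjusted p = 0.000871) for the combination against GSK126 and 1.20 ± 0.15 (adjusted p = 4.47e-05) for the combination against DMSO, while on the spike-in scale the change was 0.41 for the first and -0.09 for the second. ABCA5 sits on chromosome 17 in a row with ABCA8, ABCA9, ABCA6 and ABCA10, all of which were below the filter. ABCA12, which moves glucosylceramide into the lamellar granules of skin, had 1390.2, 1430.2 and 1129 in combination libraries, 538, 1078 and 693 in GSK126 libraries, 1031, 891 and 1085 in lapatinib libraries and 577, 658 and 599 in DMSO libraries. Lapatinib and DMSO libraries did not overlap, and GSK126 library 2 fell among those of lapatinib. ABCA12 rose by 0.71 ± 0.21 (adjusted p = 0.0268) with lapatinib, 0.83 ± 0.21 (adjusted p = 0.0189) for the combination against GSK126 and 1.10 ± 0.21 (adjusted p = 0.00133) for the combination against DMSO. The first call was lost without DMSO library 1 or 3 or lapatinib library 1 or 3 (0.65 to 0.70, adjusted p between 0.0738 and 0.0958). The second was lost without GSK126 library 3 or combination library 1 or 2 (0.76 to 0.78, adjusted p between 0.054 and 0.0818), and its direction turned on the spike-in scale (-0.22).

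ABCA7 and ABCA2 moved the other way in the combination. ABCA7, a phospholipid exporter known as a risk gene for Alzheimer's disease, had 141, 113 and 176 in combination libraries, 403, 183 and 315 in GSK126 libraries, 428, 396 and 402 in lapatinib libraries and 494, 490.1 and 400.2 in DMSO libraries. All combination libraries lay under all other libraries. ABCA7 fell by 1.53 ± 0.26 (adjusted p = 0.00102) for the combination against lapatinib and by 1.70 ± 0.26 (adjusted p = 0.000211) against DMSO. The decrease of 1.01 ± 0.26 (adjusted p = 0.017) against GSK126 was lost without GSK126 library 3 or combination library 1 or 2 (adjusted p between 0.0534 and 0.0853, change -1.01 to -0.85). GSK126 alone gave -0.68 ± 0.26, adjusted p = 0.104 and lapatinib alone -0.17 ± 0.26, adjusted p = 0.657. ABCA2, an endolysosomal lipid transporter, had 1125, 1014 and 1010.0 in combination libraries, 1185, 1261 and 1642 in GSK126 libraries, 1802, 1487 and 1581 in lapatinib libraries and 1401, 1820.1 and 1445 in DMSO libraries. The combination libraries were the lowest of the 12. ABCA2 fell by 0.63 ± 0.16 (adjusted p = 0.0144) against lapatinib and by 0.56 ± 0.16 (adjusted p = 0.0131) against DMSO. The first call was lost without lapatinib library 1 or combination library 2 or 3 (-0.60 to -0.55, adjusted p between 0.0521 and 0.0812), and the second without DMSO library 2 (-0.44, adjusted p = 0.059).

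ABCG1, an LXR target that passes cholesterol to high density lipoprotein, had 488, 457 and 476 in combination libraries, 141, 308 and 298 in GSK126 libraries, 439, 382 and 410.1 in lapatinib libraries and 257, 334 and 268 in DMSO libraries. Combination libraries lay above those of every other group, and GSK126 library 1 was the lowest of all 12. ABCG1 rose by 1.01 ± 0.25 (adjusted p = 0.0157) for the combination against GSK126 and by 0.73 ± 0.25 (adjusted p = 0.0335) against DMSO. The first call was lost without combination library 1 (0.99, adjusted p = 0.0559) or 2 (1.03, adjusted p = 0.0501), and the second without DMSO library 1 or 3 or any 1 combination library (0.66 to 0.76, adjusted p between 0.0702 and 0.102). On the spike-in scale the changes were -0.04 and -0.27. Lapatinib alone gave 0.52 ± 0.25, adjusted p = 0.142 and GSK126 alone -0.27 ± 0.25, adjusted p = 0.547. ABCB4, which moves phosphatidylcholine into bile and lies beside ABCB1 on chromosome 7, had 27.4, 42.1 and 38.6 in combination libraries, 5.48, 20.7 and 11.5 in GSK126 libraries, 45.0, 64.9 and 82.6 in lapatinib libraries and 28.2, 38.5 and 37.4 in DMSO libraries. All GSK126 libraries lay below all other libraries. ABCB4 fell by 1.55 ± 0.42 (adjusted p = 0.0259) with GSK126 and was 1.59 ± 0.42 (adjusted p = 0.0208) higher in the combination than in GSK126. The decrease was lost without DMSO library 2 or 3 or GSK126 library 3 (-1.58 to -1.47, adjusted p between 0.0509 and 0.0824). With the spike-in composition as a term it was -0.56 (adjusted p = 0.879), in a fit that rests on combination library 1. The increase was lost without combination library 2 (1.47, adjusted p = 0.0873) or 3 (1.535, adjusted p = 0.0596). With the spike-in composition as a term the increase was 0.785 and not called.

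Other members work inside the cell. ABCB9, which moves peptides into lysosomes, had 668, 635 and 652 in combination libraries, 452, 357 and 605 in GSK126 libraries, 1212, 1232 and 1043 in lapatinib libraries and 601, 614 and 578 in DMSO libraries. All 3 lapatinib libraries were above all others. It rose by 0.96 ± 0.17 (adjusted p = 0.00154) with lapatinib and fell by 0.83 ± 0.17 (adjusted p = 0.00459) in the combination against lapatinib, and the combination against GSK126 gave 0.50 ± 0.17, adjusted p = 0.0659. ABCD4, which is needed for the exit of cobalamin from lysosomes, had 642, 714 and 723 in combination libraries, 590.4, 425 and 521 in GSK126 libraries, 693, 724 and 716 in lapatinib libraries and 511, 471 and 511 in DMSO libraries. Libraries with lapatinib lay above those without. Its increase was 0.51 ± 0.15 (adjusted p = 0.0194) with lapatinib, 0.45 ± 0.15 (adjusted p = 0.0499) for the combination against GSK126 and 0.48 ± 0.15 (adjusted p = 0.0192) against DMSO, and on the spike-in scale these were -0.025, -0.59 and -0.53. The first call was lost without DMSO library 2 or any 1 lapatinib library (0.475 to 0.53, adjusted p between 0.0565 and 0.0688). The second was lost without any 1 of 11 libraries (0.32 to 0.50, adjusted p between 0.0608 and 0.154) and stood without GSK126 library 1. The third was lost without DMSO library 2 or combination library 2 or 3 (0.44 to 0.45, adjusted p between 0.059 and 0.0673).

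ABCB6, a porphyrin transporter, was lower with lapatinib than with DMSO. It had 1545, 1547 and 1911 in combination libraries, 2706, 1861 and 2350.4 in GSK126 libraries, 1838, 1825 and 1622 in lapatinib libraries and 3394, 2853 and 2912 in DMSO libraries. The DMSO libraries were above all others, with GSK126 library 1 the closest. ABCB6 fell by 0.79 ± 0.16 (adjusted p = 0.00274) with lapatinib and by 0.88 ± 0.16 (adjusted p = 0.000741) in the combination against DMSO, and GSK126 alone gave -0.42 ± 0.16, adjusted p = 0.104. The combination against GSK126 gave -0.46, adjusted p = 0.0618 in limma and 0.031 in DESeq2, with overlapping libraries.

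Of the soluble members, ABCF2, a translation-related ATPase, was lower with lapatinib than with DMSO. It had 1767, 1792 and 1666 in combination libraries, 1828, 2478 and 2609 in GSK126 libraries, 2035, 2048 and 1973 in lapatinib libraries and 2607, 2857 and 2575 in DMSO libraries. Libraries with lapatinib lay under those of DMSO. ABCF2 fell by 0.41 ± 0.14 (adjusted p = 0.0473) with lapatinib and by 0.62 ± 0.14 (adjusted p = 0.00356) in the combination against DMSO. The first call was lost without any 1 library of the lapatinib, DMSO or combination groups (-0.435 to -0.36, adjusted p between 0.061 and 0.135) and stood without any 1 GSK126 library. For the combination against GSK126, ABCF2 gave -0.39, adjusted p = 0.0756 in limma and 0.0287 in DESeq2. ABCE1, which splits ribosomes after termination, had 1598, 1979 and 1435 in combination libraries, 1496, 2568 and 1581 in GSK126 libraries, 1509, 1511 and 1691 in lapatinib libraries and 1622, 2136 and 2216 in DMSO libraries. Its groups overlapped, and no comparison passed, with -0.33 ± 0.21, adjusted p = 0.256 for lapatinib and -0.11 ± 0.21, adjusted p = 0.79 for GSK126. Another 10 members tested and never called by limma (ABCA13, ABCB8, ABCB10, ABCC2, ABCC8, ABCC10, ABCD3, ABCF1, ABCF3 and ABCG4) had log2 fold changes that reached from -1.87 for ABCC8 with GSK126 to 2.84 for ABCA13 in the combination against lapatinib, both in genes of few reads. For ABCA13, combination library 1 held 45 of the 98 reads.

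**Figure D3:**
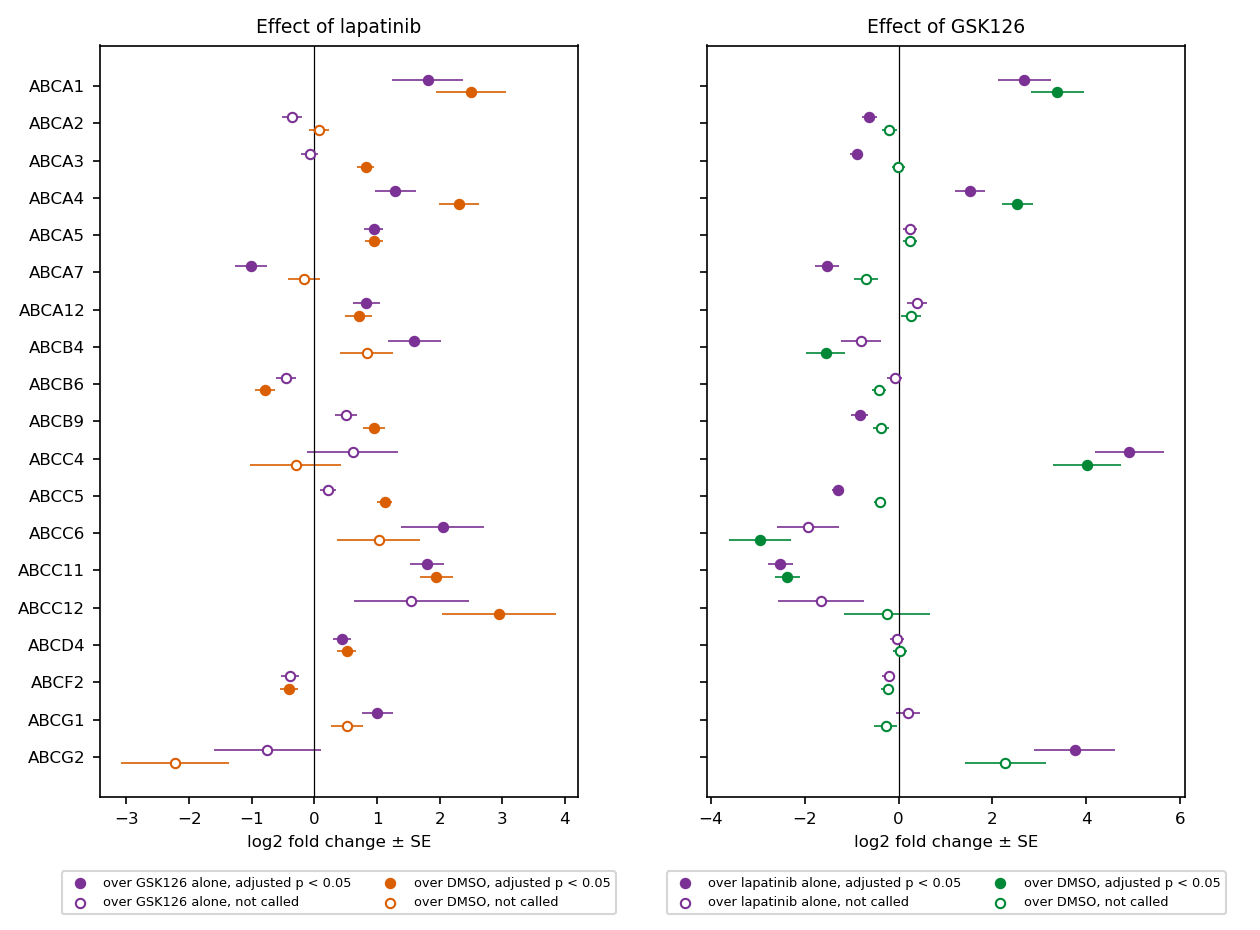
Log2 fold changes ± SE of members called at least once, for lapatinib (left) over GSK126 alone and over DMSO, and for GSK126 (right) over lapatinib alone and over DMSO. Filled points passed an adjusted p under 0.05. ABCC11 lies right of 0 for lapatinib and left of 0 for GSK126 in both backgrounds, and ABCC5 and ABCA3 lie apart between backgrounds.

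Whether one drug changed the response to the other was tested as the interaction, the combination minus GSK126 minus lapatinib plus DMSO on the log2 scale. No member passed in limma, where 0.0212% of all genes did (0.0141% higher and 0.00705% lower). At an unadjusted p under 0.05 there were 4 members, ABCA3, ABCA4, ABCA7 and ABCC5, and 836 of all genes. ABCC5 had an interaction of -0.90 ± 0.18, adjusted p = 0.136, and ABCA3 had -0.89 ± 0.19, adjusted p = 0.227. edgeR on the recovered reads called 0 members (4 at an unadjusted p under 0.05), and DESeq2 called ABCC5 (-0.90, adjusted p = 0.000228) and ABCA3 (-0.89, adjusted p = 0.00365). The share of all genes that DESeq2 called for the interaction was 0.811%. Without GSK126 library 1, limma called ABCC5 alone (-1.00, adjusted p = 0.024). ABCC11, with opposite responses to the drugs, had -0.15 ± 0.38, adjusted p = 1, and ABCA5 had -0.00 ± 0.21, adjusted p = 1.

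Comparisons that share no library were set side by side. GSK126 against DMSO and the combination against lapatinib had the same sign for 29 of 34 tested members (85.3%), where 74.6% of all genes had. Of the 13 members called in either, 13 had the same sign, where 96.4% of all genes called in either had. Lapatinib against DMSO and the combination against GSK126 had the same sign for 26 of 34 (76.5%), where 80.7% of all genes had, and for 15 of the 16 called in either, where 95.8% of all genes called in either had.

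Normalized counts were also summed over the subfamilies. Subfamily C summed to 7066, 6622 and 6069 in combination libraries, 4412, 6314 and 6378 in GSK126 libraries, 13569.5, 12902 and 13383 in lapatinib libraries and 6474, 7599 and 6722 in DMSO libraries, with lapatinib apart from the rest and ABCC5 the largest part. Subfamily A summed to 5972, 5729.5 and 5317 in combination libraries, 4479.7, 4837 and 4988 in GSK126 libraries, 7208, 6597 and 6893 in lapatinib libraries and 4686, 5159.8 and 4348 in DMSO libraries. Subfamily B had its lowest mean in the combination, with 4626, 4837 and 5164, against 7223, 6652 and 6509 in DMSO libraries. These sums were not tested.

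**Figure D4:**
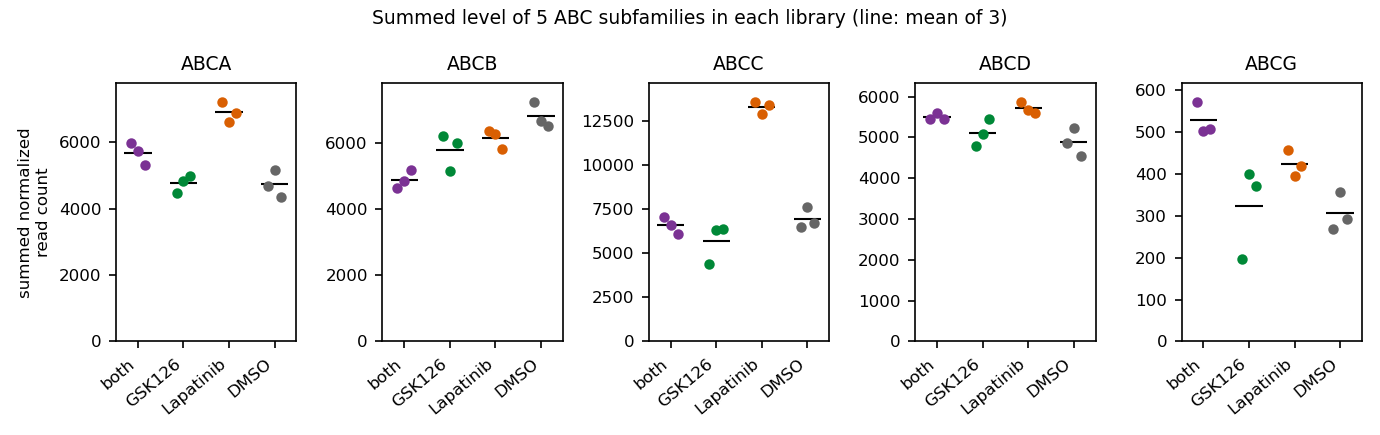
Summed normalized read counts of subfamilies A, B, C, D and G in each library, with "both" for the combination. Points are libraries and lines the means of 3. Subfamily C is near 13285 in lapatinib and 6932 in DMSO, and subfamily B has its lowest mean in the combination, near 4876.

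A few ABC genes carry other symbols. TAP1 and TAP2, the subunits of the peptide pump that loads MHC class I, moved in opposite directions with the 2 drugs. TAP1 had 2556, 2730.1 and 2723 in combination libraries, 3239, 4396 and 4556 in GSK126 libraries, 334, 358 and 374 in lapatinib libraries and 594, 604 and 587 in DMSO libraries. It fell by 0.74 ± 0.14 (adjusted p = 0.00209) with lapatinib and rose by 2.75 ± 0.14 (adjusted p = 1.84e-07) with GSK126. TAP2 had 2773, 2665 and 2649 in combination libraries, 2103, 3901 and 3785 in GSK126 libraries, 688, 662 and 644 in lapatinib libraries and 1063, 1211 and 828 in DMSO libraries. It fell by 0.62 ± 0.21 (adjusted p = 0.0471) with lapatinib and rose by 1.62 ± 0.21 (adjusted p = 0.000206) with GSK126. The chloride channel CFTR was below the filter, with 21.2, 0.809 and 0 in combination libraries and at most 2.65 elsewhere.

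Genes that work with the members were counted in the same fit, where 13.7% of all genes were higher and 14.3% lower with lapatinib, and 10.7% higher and 3.93% lower with GSK126. Of 17 tested genes of LXR and sterol handling, 5 rose and 2 fell with lapatinib and 3 rose with GSK126. With lapatinib the HDL receptor gene SCARB1 fell (-0.84 ± 0.13, adjusted p = 0.000461), while the receptor genes RXRA (0.62 ± 0.12, adjusted p = 0.00195) and NR1H3 (0.86 ± 0.26, adjusted p = 0.0277) rose. MYLIP, a ubiquitin ligase and LXR target, rose with GSK126 (0.79 ± 0.16, adjusted p = 0.00499). Other genes of this list lay on both sides of DMSO. Means in GSK126 and DMSO libraries were 2426 and 1663 for PLTP, 2455 and 3383 for LPCAT3 and 62.7 and 103 for APOE. The LXR target ABCG1 was not called with GSK126, and a role of LXR was not tested. Of 19 tested genes of xenobiotic and bile acid handling, 4 rose and 2 fell with lapatinib, and 3 rose and 2 fell with GSK126. The organic anion transporter gene SLCO3A1 fell with lapatinib (-1.78 ± 0.22, adjusted p = 9.75e-05) and rose with GSK126 (2.01 ± 0.22, adjusted p = 5.36e-05), and the vault protein gene MVP rose with both (1.19 ± 0.19, adjusted p = 0.000554 and 1.38 ± 0.19, adjusted p = 0.000254).

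Against the same shares of all genes, of 25 peroxisomal genes 9 rose and 1 fell with lapatinib and 0 rose and 2 fell with GSK126. Of 19 tested genes of sphingolipids and lamellar lipids, 8 rose and 1 fell with lapatinib and 3 rose and 1 fell with GSK126. SPTLC2, a subunit of the first enzyme of sphingolipid synthesis, rose with lapatinib (0.93 ± 0.17, adjusted p = 0.00164), and the sphingosine kinase gene SPHK1 fell with lapatinib (-1.08 ± 0.28, adjusted p = 0.0119) and rose with GSK126 (1.49 ± 0.28, adjusted p = 0.00267). Of 24 genes of heme and iron-sulfur synthesis, 2 rose and 7 fell with lapatinib and 0 rose and 2 fell with GSK126, with the heme exporter gene FLVCR1 at -1.12 ± 0.21, adjusted p = 0.00194 for lapatinib. Of 20 genes of ribosome recycling and translation control, 0 rose and 4 fell with lapatinib, and 1 rose with GSK126. The medians with lapatinib were 0.30, 0.29, 0.45, 0.60, -0.18 and -0.42 in the order of these 6 lists, beside 0.04 over all genes. With GSK126 they were 0.29, -0.14, -0.145, -0.005, -0.36 and -0.21, beside -0.045.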

How the data were processed

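Messenger RNA of 12 SKBR3 libraries (4 groups of 3) had been sequenced as 75 bp reads. STAR alignment to hg19 and DESeq2 normalization are named per the submitters' processing notes; the versions, the counter, its annotation and its use of strand are not given in the sources used here. The authors deposited 1 signal value per gene and library, read counts divided by a size factor. All values (100%) were whole multiples of the smallest within 0.01, so the reads were recovered, at a largest gap of 2.2e-09. The 86 spike-in transcripts stayed out of the tests.

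limma 3.58.1 (R 4.3.3) was fitted to log2(value + 1) with a mean per group, 12 libraries, 8 residual degrees of freedom and a trended prior variance, with Benjamini-Hochberg adjustment over the genes tested. On the recovered reads, edgeR 4.0.16 (quasi-likelihood) called 3877 genes for lapatinib against DMSO and 2000 for GSK126 against DMSO, where limma called 3973 and 2069. DESeq2 1.42.0 was a further alternative. Other alternatives changed the pseudocount (0.5 or 5), the filter (none or 50) and the scaling (TMM, total count, spike-ins), used the compared groups alone, blocked on the replicate number, or left out each library in turn. A term for spike-in composition, and leaving out GSK126 library 1 with combination library 1, were chosen after seeing the data.

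The members and all gene lists were chosen with earlier results of these data known. By rule the text names, per comparison, up to 8 called members whose higher group averaged 50 or more without overlap, plus ABCA1, ABCG1, ABCB1, ABCC1, ABCG2, ABCC3, ABCC4 and ABCE1. ABCA2, ABCB4, ABCC6, ABCC12, ABCF2 and the members never called were named after their values were seen. Of the related lists the text gives a part of up to 4 genes each with the smallest adjusted p. Some genes that meet these rules are not reported here, though they stay in the fits, counts and sums. Exon lengths came from GENCODE (GRCh38), matched by symbol for all 46 members, and promoters and neighbours from RefSeq (GRCh38.p14); 35 members had a promoter entry, and for 27 of these the 30 bases after the start were found in a GENCODE transcript. Intervals and limits from counts cover counting error only.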

Additional observations from a re-analysis of the deposited data

How the results depend on the processing

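Of the 51 member calls, 11 were kept under every one of 25 other settings that could be fitted, and 32 under leaving out any 1 library. Over all settings the calls kept direction and threshold in 1091 of 1269 refits, missed the threshold with the same direction in 171 and turned direction in 7. All 7 were under spike-in scaling. ABCD4 was -0.025 for lapatinib against DMSO, -0.594 for the combination against GSK126 and -0.528 for the combination against DMSO. In the combination against GSK126, ABCA12 was -0.217, ABCA5 -0.093 and ABCG1 -0.036, and ABCG1 was -0.27 for the combination against DMSO. With that scaling, 0 members were called for lapatinib against DMSO, where 5.54% of all genes were. There were 4 for the combination against GSK126 (11.8%, against 21.6%) and 3 for the combination against lapatinib (8.82%, against 2.89%). With the compared groups fitted alone, 4 members (11.8%, against 6.69% of all genes) were called for the combination against GSK126. For the combination against lapatinib there were 17 (50%, against 35.9%). For the combination against GSK126, a spike-in composition term gave 3 (8.82%, against 8.09% of all genes). That fit sets combination library 1 against GSK126 libraries 2 and 3. Leaving out GSK126 library 1 and combination library 1 together gave 6 (18.2%, against 15.7%). For the interaction, DESeq2 called 2 members (6.67% of the 30 with an adjusted p, against 0.811% of all genes). Leaving out both those libraries gave 1 (3.03%, against 0.123%). The cause of these differences was not tested, beyond the shift of the median gene under spike-in scaling. Leaving out 1 library gave 8 members (23.5%, against 18.2% of all genes) to 17 (50%, against 40.5%) for lapatinib against DMSO. GSK126 against DMSO had 5 (14.7%, against 10.3% or 12%) to 8 (23.5%, against 23%). The combination against GSK126 had 2 (5.88%, against 9.64%) to 14 (41.2%, against 31.3%). Against lapatinib the combination had 9 (26.5%, against 12.3% or 14.4%) to 13 (38.2%, against 25.4%). Against DMSO it had 9 (26.5%, against 38.3% or 38.7%) to 14 (41.2%, against 52.7%). The interaction had 0 to 1 (2.94%, against 0.128%). Deviations from the group mean correlated above 0.1 in 4 of 18 same-numbered pairs of libraries, in a range of -0.334 to 0.352. Pairs of unlike number ranged from -0.483 to 0.44, so these values do not settle whether the replicate numbers pair the libraries. With the replicate number as a block, 11, 6, 8, 11, 11 and 0 members were called in the order of those comparisons. Their shares of the members tested were 32.4%, 17.6%, 23.5%, 32.4%, 32.4% and 0%. Those of all genes were 26.3%, 12.8%, 16.2%, 16.2%, 40.8% and 0.00705%. Genes with few reads (ABCA1 in DMSO, ABCC4, ABCC6, ABCC12, ABCG2) are limited by depth, and their changes depend on the pseudocount.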

Other observations

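A few rows with ABC symbols fall outside the rule. The antisense gene ABCC5-AS1 lay between 0 and 4.9 normalized counts in all 12 libraries. The pseudogenes ABCC6P1 and ABCC6P2 had at most 1.93 and 5.32 in any library, and none of the GSK126 or DMSO libraries had a read of either. ABCA11P had 38.9 ± 10.4 in combination libraries, 20.6 ± 12.8 in GSK126 libraries, 31.4 ± 8.80 in lapatinib libraries and 33.6 ± 15.6 in DMSO libraries (SD, n = 3). ABCA17P had 5.17 ± 2.14 in combination libraries, 12.3 ± 4.84 in GSK126 libraries, 7.94 ± 0.939 in lapatinib libraries and 13.9 ± 11.3 in DMSO libraries. ABCA11P and ABCA17P passed the filter and were called by limma in none of the 5 comparisons, with adjusted p between 0.169 and 0.99 (lowest unadjusted p 0.0583). The other 3 were below the filter.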
